A study of Mus musculus with 6 samples.

Results

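The genes described here are 8 nuclear genes whose products shape, divide and clear mitochondria: Mfn1, Mfn2 and Opa1, which drive fusion, Dnm1l, Fis1 and Mff, which act in fission, and Pink1 and Fundc1, which act in mitophagy. They were taken by gene symbol from a deposited table of 56691 gene rows, and each symbol matched 1 row. RNA sequencing was done on primary cardiomyocytes of neonatal mice (called NMCMs in the labels, tissue heart). The HMGB2 group had the genotype HMGB2 overexpression and the treatment Ad-cTNT-HMGB2 (3 libraries), and the vector group had the genotype Control and the treatment Ad-cTNT vector (3 libraries). Cells of both groups thus carried an adenovirus (Ad5) with the cTNT promoter, the cardiac troponin T promoter, so that the insert is driven in cells where this promoter is active, chiefly cardiomyocytes. HMGB2 is a chromatin protein that bends DNA, and the series title links it to cardiomyocyte proliferation and metabolic reprogramming. The sources used here do not give the animals' age beyond neonatal, the mouse strain, the virus dose or the time of collection. The labels do not say whether the 3 replicates of a group were separate cultures or animals, and the p-values therefore describe only how much these samples varied, which may be technical variation.

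Mitochondria fuse by joining their outer membranes through the GTPases Mfn1 and Mfn2 and their inner membranes through the GTPase Opa1, and they divide when the GTPase Dnm1l (also called Drp1) is drawn from the cytosol to the outer membrane by adaptors such as Mff. Damaged mitochondria are marked for autophagy by the kinase Pink1, or by outer membrane receptors such as Fundc1, which binds LC3 proteins. In the heart these processes are known for their part in the postnatal maturation of cardiomyocytes, where Mfn2 is also a target of Pink1.

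Both mitofusin transcripts were higher with HMGB2, and their promoters are printed here with that of Opa1, the fusion gene that did not pass the test, because the comparison of these 3 genes is the main result on fusion. Each sequence is the 250 bases before the annotated gene start in RefSeq on GRCm38.p6 (for Mfn2, the most upstream of 3 annotated starts), written 5′ to 3′ on the gene's strand, with matches to the searched motifs in capitals. The Mfn2 stretch lies at chr4:147904910-147905159 on the minus strand and holds 62% G and C. The Mfn1 stretch lies at chr3:32529232-32529481 on the plus strand and holds 53.6% G and C. The Opa1 stretch lies at chr16:29579084-29579333 on the plus strand and holds 52.0% G and C.
Mfn2: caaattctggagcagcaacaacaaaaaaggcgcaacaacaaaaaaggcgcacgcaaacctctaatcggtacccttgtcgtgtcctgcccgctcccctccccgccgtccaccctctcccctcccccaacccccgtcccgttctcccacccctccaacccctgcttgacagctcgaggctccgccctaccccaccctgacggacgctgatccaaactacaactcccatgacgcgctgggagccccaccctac
Mfn1: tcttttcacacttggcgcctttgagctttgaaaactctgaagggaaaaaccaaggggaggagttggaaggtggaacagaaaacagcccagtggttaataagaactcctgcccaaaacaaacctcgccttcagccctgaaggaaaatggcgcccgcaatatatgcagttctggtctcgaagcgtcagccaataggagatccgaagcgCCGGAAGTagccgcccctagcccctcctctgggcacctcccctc
Opa1: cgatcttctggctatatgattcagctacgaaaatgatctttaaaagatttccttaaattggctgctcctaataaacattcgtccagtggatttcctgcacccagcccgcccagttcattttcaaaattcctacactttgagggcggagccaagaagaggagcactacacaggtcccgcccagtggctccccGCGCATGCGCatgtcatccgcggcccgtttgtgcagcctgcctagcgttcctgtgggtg
The capitals in Mfn1 mark CCGGAAGT, an ETS factor motif 44 bases before the start, and those in Opa1 mark a match to the motif of the nuclear respiratory factor Nrf1 (GCGCA, any base, GCGC), 59 bases before the start. No searched motif was found in the Mfn2 stretch.

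All 8 genes matched the RefSeq promoter table, with 13 entries in all, and 6 motifs were searched on both strands in the 300 bases that each entry spans. A gene was counted if any of its entries matched, so the counts of genes and the shares of entries are in different units. An ETS match was found for 2 genes, Mfn1 and Fis1, against 3.89% of 32851 entries. An Nrf1 match was found for 2 genes, Opa1 and Pink1, against 4.6% of entries. The other 4 motifs were not found in any of these windows, namely AAGGTCA (bound by estrogen-related receptors; 4.72% of entries), the E-box CACGTG (7.15%), the heat shock element (GAA, 2 of any base, TTC, 2 of any base, GAA; 0.603%) and the YY1 motif AAGATGGC (2.75%). The matches thus include Mfn1, which rose, and Fis1, Opa1 and Pink1, which did not pass the test. Mfn2, which also rose, had no match at any of its 3 starts. Such matches are descriptions of letters and not of bound sites.

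Library totals were 14497676 to 16618365 counts with HMGB2 and 12498215 to 14101385 with the vector, and 15429 genes had enough counts to be tested. Values per library are CPM (counts scaled to a common library size) on library sizes scaled by the trimmed mean of M values (TMM), and fold changes and p-values are from the quasi-likelihood test of edgeR, adjusted by Benjamini-Hochberg over all genes tested. Hmgb2 itself, the check of the labels, averaged 184 CPM with HMGB2 and 42.6 CPM with the vector, 4.33-fold higher (edgeR adjusted p = 1.89e-06). A pair of libraries stood apart within their groups. On the second principal component of the 500 most variable genes (14.3% of their variance), HMGB2 3 (-10.5) and vector 1 (-14.2) lay away from the other 4 libraries (4.37 to 8.47). In these libraries a gene's deviation from the rest of its group ran against its exon length. Spearman's rho was -0.61 in HMGB2 3 and -0.64 in vector 1 over 8368 genes. It was 0.43 to 0.53 in the others. Their reference holds HMGB2 3 or vector 1, so the opposite sign is in part built in and shows no trend of their own. Genes share a library and are not independent replicates.

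Of the 8 genes, all passed the filter on low counts, 2 rose with HMGB2 (Mfn1 and Mfn2), 0 fell, and 6 did not pass the test. Over all genes tested, 25.2% passed, 14.4% as higher and 10.8% as lower, so the share of the 8 genes that passed, 2 of 8, is about that of all genes. At an unadjusted p under 0.05, edgeR gave 3 of the 8 as higher (Dnm1l as well) and 0 as lower. The share of all genes at that threshold is not given here or for the lists below. DESeq2 called 2 of the 8 as higher and 0 as lower after adjustment, beside 1898 higher and 1504 lower of 31188 genes fitted. Log2 fold changes were above 0 for 6 of the 8 genes, beside 49.8% of all genes tested. The median log2 fold change of the 8 genes was 0.18, against -0.0022 over all genes tested. In 4 of them (Mfn1, Mfn2, Dnm1l and Mff) every HMGB2 library lay above every vector library, which was so for 21.6% of all genes, and in the other 4 the groups overlapped. Without the libraries HMGB2 3 and vector 1, 6 of the 8 rose and 0 fell, while calls over all genes also grew, to 3265 that rose and 2986 that fell. This alternative was chosen with earlier results of these data known and leaves 2 libraries a group. The libraries left are the most alike of each group. The chi-square per degree of freedom between their counts was 1.99 for HMGB2 1 and 2 and 2.77 for vector 2 and 3. For the other pairs within a group it was 14.3 to 20.6. The p-values without HMGB2 3 and vector 1, here and below, thus rest on a much smaller spread within groups.

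**Figure D1:**
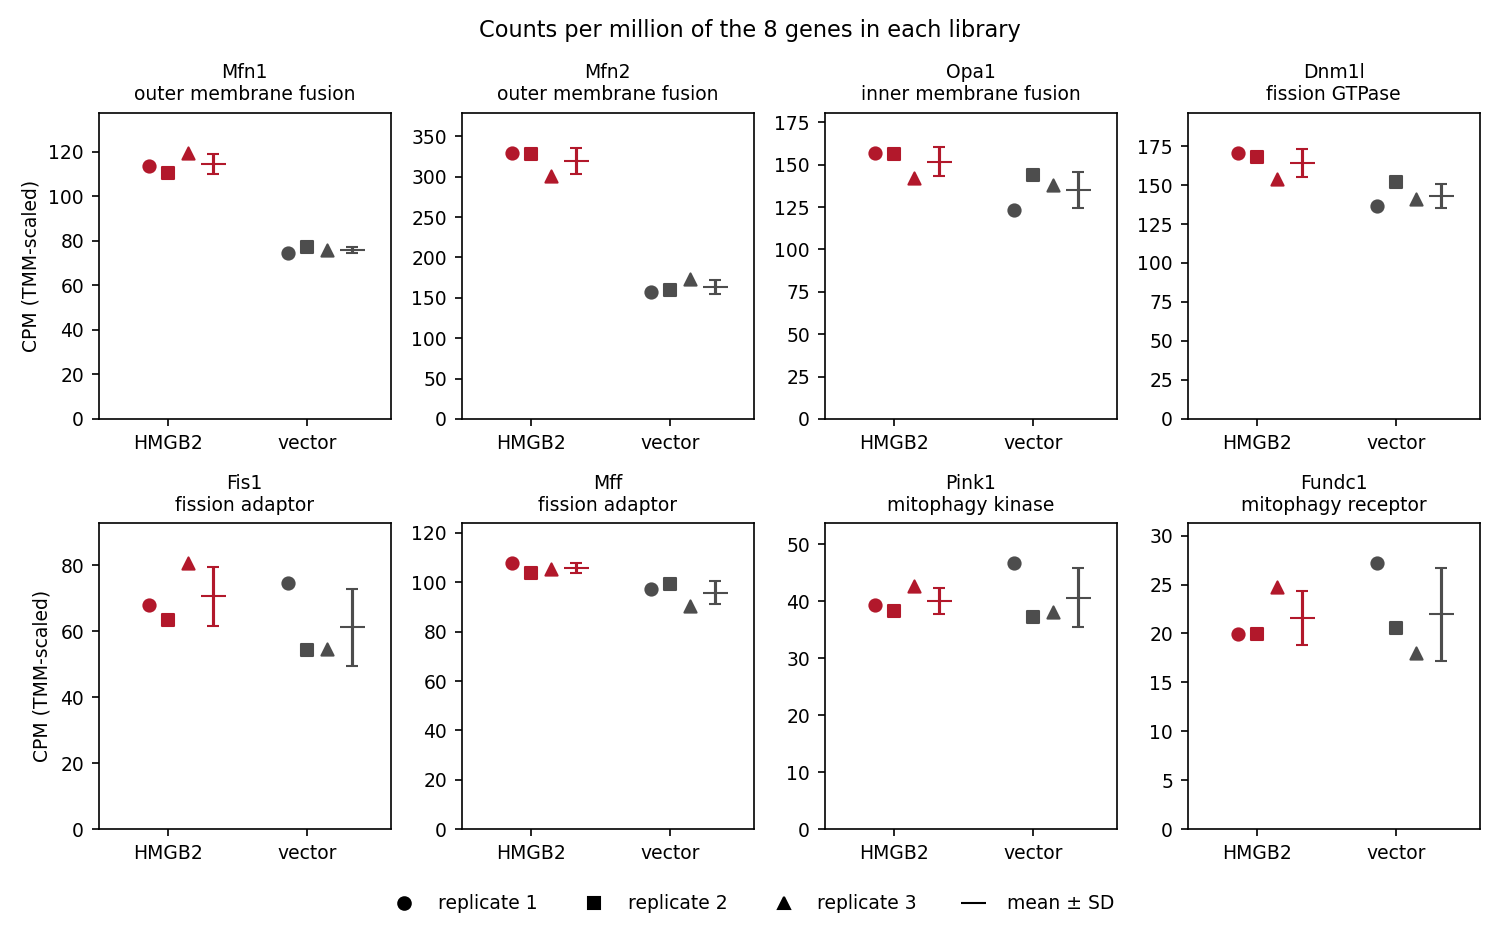
CPM (TMM-scaled, linear axes from 0) of the 8 genes in each of the 3 HMGB2 libraries (red) and 3 vector libraries (grey), with the mean and SD of each group beside the points. The groups lie far apart for Mfn1 and Mfn2, and for Fis1, Pink1 and Fundc1 the highest libraries of their groups are HMGB2 3 and vector 1.

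Mfn2, which joins outer membranes and also tethers mitochondria to the endoplasmic reticulum, lies on chromosome 4 (147873599 to 147904704, minus strand, GRCm38). It had 329.5, 328 and 300.4 CPM in the 3 HMGB2 libraries, against 157, 160.2 and 173 CPM in the 3 vector libraries. The lowest HMGB2 library was HMGB2 3, and it still lay far above the highest vector library. Mean levels were 319 ± 16.4 CPM with HMGB2 and 163 ± 8.15 CPM with the vector (SD, n = 3 each). Mfn2 was 1.95-fold higher (95% interval 1.74 to 2.19; log2 fold change 0.97, SE 0.07; edgeR adjusted p = 2.17e-05), at the 94.4 percentile of log2 fold changes over all genes tested. These values rest on 4754 to 5482 counts a library with HMGB2 and 1963 to 2414 with the vector.

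Mfn1, which shares the outer membrane fusion reaction with Mfn2, lies on chromosome 3 (32529465 to 32579239, plus strand, GRCm38). Its levels were 114, 111 and 119.5 CPM in the HMGB2 libraries, against 74.3, 77.1 and 75.9 CPM in the vector libraries. All HMGB2 libraries were higher, with a gap several times the spread within either group. Means were 115 ± 4.50 CPM with HMGB2 and 75.8 ± 1.40 CPM with the vector (SD, n = 3 each), a 1.51-fold difference (95% interval 1.36 to 1.68; log2 fold change 0.60, SE 0.07; edgeR adjusted p = 0.000238). Leaving out HMGB2 3 and vector 1 gave log2 fold changes of 0.55 for Mfn1 and 0.98 for Mfn2.

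The intervals of Mfn1 and Mfn2 do not overlap, and the balance between them was set out as the share of Mfn2 in their summed FPKM (counts scaled by exon length and library total), the scale on which genes of different length can be compared. Mfn2 made up 77.3%, 77.7% and 74.7% of mitofusin FPKM in the HMGB2 libraries, against 71.4%, 71.0% and 72.8% in the vector libraries. The share was higher in each HMGB2 library than in any vector library. Mean shares were 76.6 ± 1.62% with HMGB2 and 71.7 ± 0.967% with the vector (SD, n = 3 each), a difference of 4.88 percentage points (two-sided exact permutation p = 0.1, the smallest that 3 against 3 allows, so that this design cannot pass 0.05). The paired genes can be told apart by sequence: their coding sequences of 2223 (Mfn1) and 2271 bases (Mfn2) were 68.2% identical when aligned, and the longest run of identical bases was 21 bases long, ctggattgataagttttgcct, starting at coding base 570 of Mfn1 (chromosome 3) and 633 of Mfn2 (chromosome 4).

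Opa1, the inner membrane GTPase that also holds cristae closed, lies on chromosome 16 (29579334 to 29654884, plus strand, GRCm38). It had 157, 157 and 142 CPM with HMGB2, against 124, 144 and 138 CPM with the vector. The groups overlapped, with HMGB2 3 below vector 2, and vector 1 was the lowest library. Means were 152 ± 8.51 CPM with HMGB2 and 135 ± 10.6 CPM with the vector (SD, n = 3 each), a log2 fold change of 0.17 (SE 0.08, 95% interval -0.02 to 0.35) that did not pass the test (edgeR adjusted p = 0.173). Its deviations in the libraries that stand apart were -0.14 (HMGB2 3) and -0.19 (vector 1) on the log2 scale. Without both libraries the log2 fold change was 0.15 with an edgeR adjusted p of 0.00711. With offsets that remove the trend with length it was 0.16 with an edgeR adjusted p of 0.0398. Calls over all genes also grew with these offsets, to 2618 that rose and 2442 that fell.

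Among the fission genes, none passed the test with all 6 libraries. Dnm1l, the GTPase that constricts mitochondria, lies on chromosome 16 (16312230 to 16358959, minus strand, GRCm38) and had 171, 168 and 154 CPM with HMGB2, against 136, 152 and 141 CPM with the vector. Its groups did not overlap, but HMGB2 3 lay close to vector 2. Means were 164 ± 9.11 CPM with HMGB2 and 143 ± 7.87 CPM with the vector (SD, n = 3 each), a log2 fold change of 0.20 (SE 0.08, 95% interval 0.03 to 0.37; edgeR adjusted p = 0.0886). Without HMGB2 3 and vector 1 it was 0.21 (edgeR adjusted p = 0.00059), and with length offsets 0.18 (edgeR adjusted p = 0.0413). A pseudogene, Gm13719, matches a Dnm1l transcript with 91.1% identity but held at most 3 counts in any library.

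Mff, the outer membrane adaptor that recruits Dnm1l, lies on chromosome 1 (82724890 to 82752394, plus strand, GRCm38). Its levels were 108, 104 and 105 CPM with HMGB2, against 97.3, 99.4 and 90.4 CPM with the vector. The HMGB2 libraries were all above the vector libraries by a small margin. Means were 106 ± 1.98 CPM with HMGB2 and 95.7 ± 4.70 CPM with the vector (SD, n = 3 each), a log2 fold change of 0.14 (SE 0.07, 95% interval -0.01 to 0.30; edgeR adjusted p = 0.173). Without HMGB2 3 and vector 1 it was 0.16 (edgeR adjusted p = 0.0235), and with length offsets 0.14 (edgeR adjusted p = 0.215).

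Fis1, a small outer membrane protein linked to fission and to mitophagy, lies on chromosome 5 (136953275 to 136966234, plus strand, GRCm38) and had 68.0, 63.3 and 80.6 CPM with HMGB2, against 74.7, 54.3 and 54.6 CPM with the vector. Here the libraries that stand apart were the highest of each group, and the groups overlapped through vector 1. Means were 70.6 ± 8.95 CPM with HMGB2 and 61.2 ± 11.7 CPM with the vector (SD, n = 3 each), a log2 fold change of 0.21 (SE 0.14, 95% interval -0.10 to 0.52; edgeR adjusted p = 0.314). The call turned on vector 1, and without it alone the log2 fold change was 0.38 (edgeR adjusted p = 0.0154), and without HMGB2 3 as well it was 0.27 (edgeR adjusted p = 0.00151). With length offsets it was 0.19 (edgeR adjusted p = 0.123).

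The mitophagy genes did not differ detectably. Pink1, the kinase that accumulates on depolarised mitochondria, lies on chromosome 4 (138313409 to 138326307, minus strand, GRCm38) and had 39.3, 38.3 and 42.6 CPM with HMGB2, against 46.7, 37.2 and 38.1 CPM with the vector. The vector libraries spanned all of the HMGB2 libraries, with vector 1 the highest. Means were 40.1 ± 2.26 CPM with HMGB2 and 40.6 ± 5.24 CPM with the vector (SD, n = 3 each), a log2 fold change of -0.02 (SE 0.10, 95% interval -0.25 to 0.21; edgeR adjusted p = 0.92).

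Fundc1, a receptor of hypoxia-induced mitophagy, lies on the X chromosome (17556564 to 17572325, minus strand, GRCm38) and had 19.96, 19.9 and 24.7 CPM with HMGB2, against 27.2, 20.6 and 18.0 CPM with the vector. The highest and the lowest of the 6 libraries were both vector libraries. Means were 21.5 ± 2.76 CPM with HMGB2 and 21.9 ± 4.72 CPM with the vector (SD, n = 3 each), a log2 fold change of -0.02 (SE 0.16, 95% interval -0.37 to 0.33; edgeR adjusted p = 0.939). Fundc1 had the fewest counts of the 8 genes, 289 to 408 a library with HMGB2 and 252 to 339 with the vector. Without HMGB2 3 and vector 1 the log2 fold change was 0.05 for both Pink1 and Fundc1, and neither passed the test (edgeR adjusted p = 0.675 for Pink1 and 0.76 for Fundc1).

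**Figure D2:**
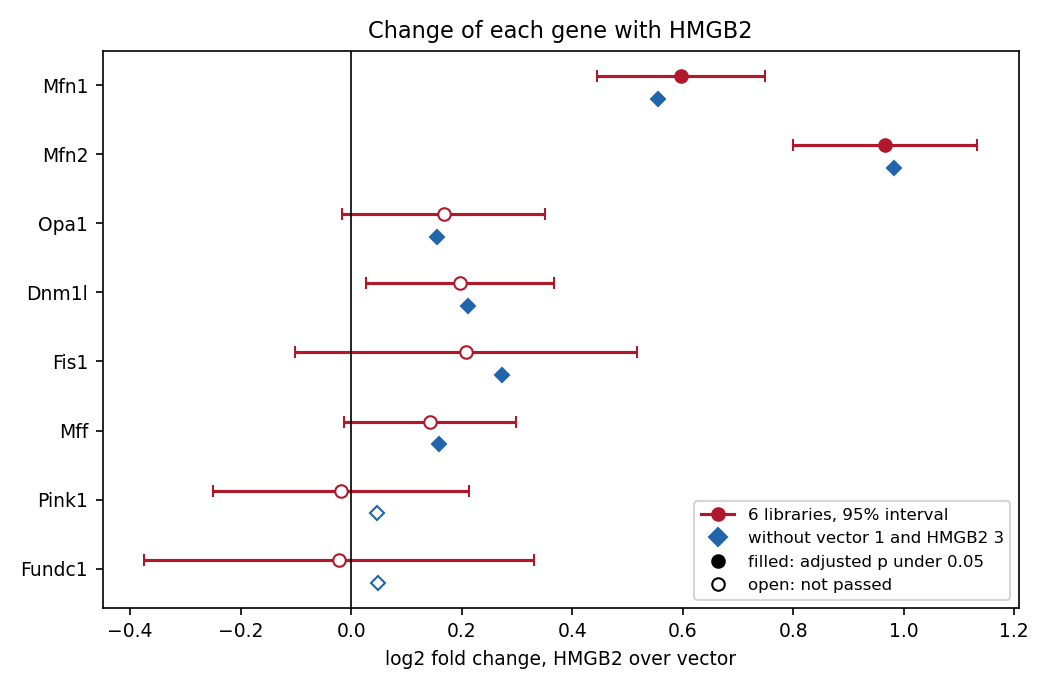
Log2 fold change of each gene, HMGB2 over vector, with its 95% interval from all 6 libraries (red circles), and the value without HMGB2 3 and vector 1 (blue diamonds); filled symbols passed an adjusted p of 0.05. Mfn1 (0.60) and Mfn2 (0.97) pass both ways, Opa1, Dnm1l, Fis1 and Mff pass only without the 2 libraries, and Pink1 and Fundc1 pass neither way.

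The trend with length in HMGB2 3 and vector 1 was visible among the 8 genes themselves. Fis1, Fundc1 and Pink1, with exon lengths of 1714, 2353 and 2673 bases, had the largest positive deviations. In HMGB2 3 these were 0.30 for Fis1, 0.31 for Fundc1 and 0.13 for Pink1 on the log2 scale, and in vector 1 they were 0.46 for Fis1, 0.49 for Fundc1 and 0.31 for Pink1. Of the longer genes, Mfn2, Dnm1l and Opa1 deviated downwards in both libraries, while Mfn1 (0.09 in HMGB2 3 and -0.04 in vector 1) and the longest gene, Mff (-0.0054 in HMGB2 3 and 0.04 in vector 1), did not. Over the 8 genes Spearman's rho between deviation and length was -0.71 in HMGB2 3 and -0.67 in vector 1, a description over genes that share each library. In the vector group the SDs of Fis1, Fundc1 and Pink1 were also larger relative to their means than those of the other 5 genes. The part that this trend has in the calls was not tested beyond the values without those libraries and with length offsets.

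**Figure D3:**
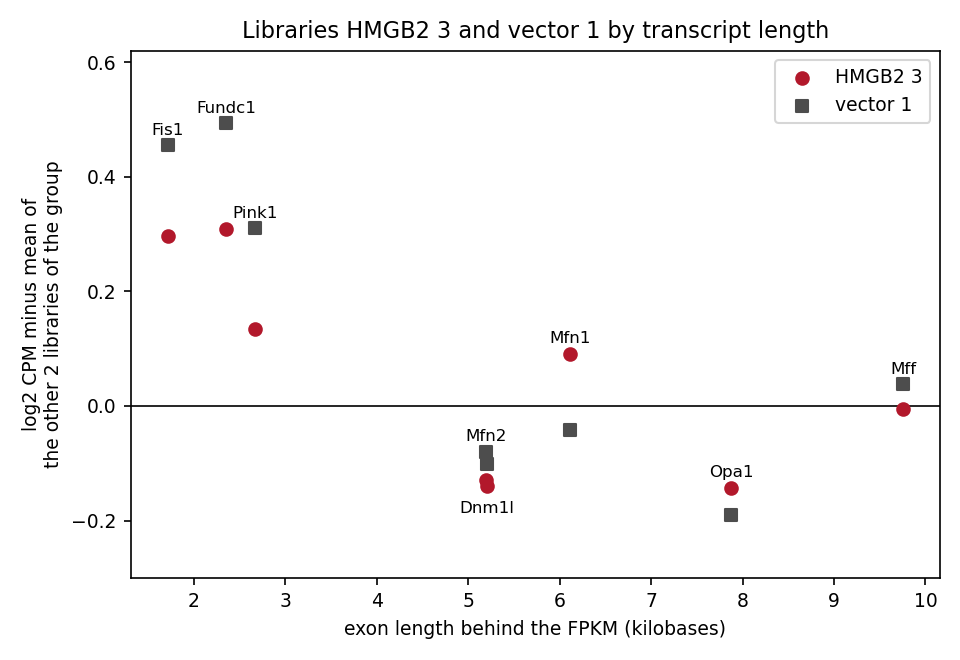
Deviation of the libraries HMGB2 3 (circles) and vector 1 (squares) from the mean of the other 2 libraries of their group (log2 CPM) against the exon length behind the FPKM (kilobases), 1 point per gene and library. The short genes Fis1, Fundc1 and Pink1 lie between 0.13 and 0.49, while Mfn2, Dnm1l and Opa1 lie between -0.19 and -0.08.

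On the FPKM scale, the order of the 8 genes differed between the groups mainly in the mitofusins. With HMGB2, Mfn2 was the highest at 61.8 ± 2.70 FPKM, followed by Fis1 (41.5 ± 5.59), Dnm1l (31.7 ± 1.52), Opa1 (19.4 ± 0.939), Mfn1 (18.9 ± 0.885), Pink1 (15.1 ± 0.973), Mff (10.9 ± 0.214) and Fundc1 (9.21 ± 1.26), all in FPKM with SD and n = 3. Of these neighbours, the ranges of Opa1 and Mfn1 overlapped, as did those of Mff and Fundc1. With the vector, Fis1 was the highest at 35.4 ± 7.0 FPKM, followed by Mfn2 (31.2 ± 1.54), Dnm1l (27.2 ± 1.31), Opa1 (17.0 ± 1.22), Pink1 (15.1 ± 2.04), Mfn1 (12.3 ± 0.146), Mff (9.73 ± 0.466) and Fundc1 (9.24 ± 2.04). There the ranges of Fis1 and Mfn2, of Opa1 and Pink1, and of Mff and Fundc1 overlapped. Mfn2 was therefore the most abundant transcript of the 8 per length with HMGB2, and in the vector group its place relative to Fis1 lay within the spread.

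Around these genes, 77 of 80 genes on 8 pathway lists were tested, of which 14 rose, 7 fell and 56 did not pass (27.3% called, beside 25.2% of all genes), with a median log2 fold change of 0.06. The counts of each list below stand beside the 14.4% of all genes that rose and the 10.8% that fell. Without HMGB2 3 and vector 1 the calls grew in most lists, as they did over all genes (3265 rose and 2986 fell of 15644, against 2224 and 1662 of 15429 with all libraries). Rises were then 5 of 7 for the MICOS genes, 3 in the PINK1 pathway list and 5 in the mitophagy receptor list. They were 4 among the mass genes and 1 among the LC3 and GABARAP genes. Falls were 3 among the Opa1 regulators, 2 among the fission regulators, 1 in the receptor list and 2 among the mass genes. In the list of Opa1 processing and fusion regulators, 1 of 10 tested genes rose and 0 fell (median log2 fold change 0.02), with 2 higher and 2 lower at an unadjusted edgeR p under 0.05 and 0 lower with DESeq2. The riser, Samm50, an outer membrane assembly factor named after its values were seen, averaged 137 ± 16.0 CPM with HMGB2 and 105 ± 8.74 CPM with the vector (edgeR adjusted p = 0.0201), and the call was lost without vector 2 (log2 fold change 0.38, adjusted p = 0.0748) or vector 3 (0.33, adjusted p = 0.0813), against 0.39 with all libraries. The protease Yme1l1, which cleaves Opa1, had 187 ± 7.16 CPM with HMGB2 and 190.3 ± 5.05 CPM with the vector (edgeR adjusted p = 0.839). Afg3l2, an inner membrane protease, had 130.3 ± 4.97 CPM with HMGB2 and 146 ± 0.062 CPM with the vector (edgeR adjusted p = 0.105). Oma1, the other protease that cleaves Opa1, named after its values were seen, had 12.1 ± 1.19 CPM with HMGB2 and 9.64 ± 1.41 CPM with the vector, with no overlap between the groups (log2 fold change 0.33; edgeR adjusted p = 0.123).

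The MICOS complex, which shapes crista junctions and binds Opa1, had 3 of 7 genes that rose and 0 that fell (median log2 fold change 0.25). Over all genes tested, 14.4% rose and 10.8% fell. All 7 log2 fold changes were positive, beside 49.8% of all genes tested. At an unadjusted edgeR p under 0.05 or with DESeq2, 0 were lower. Apoo, a small MICOS subunit, had 14.5, 13.8 and 16.2 CPM with HMGB2, against 8.18, 5.48 and 8.23 CPM with the vector. Every HMGB2 library lay above the vector libraries, by 2.04-fold on average (log2 fold change 1.03, SE 0.16; edgeR adjusted p = 0.00157). The related subunit Apool averaged 31.7 ± 1.34 CPM with HMGB2 and 24.0 ± 3.35 CPM with the vector (edgeR adjusted p = 0.0254), and the core subunit Immt averaged 274.5 ± 13.4 CPM with HMGB2 and 230.1 ± 11.5 CPM with the vector (edgeR adjusted p = 0.0309). The calls of Apool and Immt each rested on 5 of the 6 libraries: without any 1 library other than vector 1, only Apoo rose, while the log2 fold changes of Apool (0.32 to 0.44, against 0.40 with all libraries; edgeR adjusted p of 0.0554 to 0.102) and Immt (0.22 to 0.28, against 0.25; edgeR adjusted p of 0.0677 to 0.118) stayed similar in size. Immt also did not pass with length offsets (log2 fold change 0.25; edgeR adjusted p = 0.139).

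Of 14 fission adaptors and regulators tested, 4 rose, 1 fell and 9 did not pass (median log2 fold change 0.07). Mtfp1, an inner membrane protein that promotes fission, had 7.87, 7.86 and 10.9 CPM with HMGB2, against 2.73, 2.12 and 2.72 CPM with the vector. The groups lay far apart, with a fold change of 3.52 (log2 fold change 1.82; edgeR adjusted p = 0.000196). Mtfr1l, an outer membrane regulator of mitochondrial shape, averaged 135 ± 13.1 CPM with HMGB2 and 80.2 ± 11.4 CPM with the vector (1.68-fold; edgeR adjusted p = 0.00119).

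Akap1, the scaffold that holds protein kinase A at the outer membrane, where it phosphorylates Dnm1l and restrains fission, averaged 76.8 ± 2.0 CPM with HMGB2 and 56.8 ± 0.739 CPM with the vector (1.35-fold; edgeR adjusted p = 0.00142). Marchf5, a ubiquitin ligase of the outer membrane that acts on Dnm1l, Mfn1 and Fundc1, averaged 90.6 ± 6.56 CPM with HMGB2 and 71.1 ± 9.38 CPM with the vector (edgeR adjusted p = 0.034), a call lost without any 1 library other than vector 1 (adjusted p of 0.0537 to 0.135, log2 fold changes of 0.27 to 0.40, against 0.35 with all libraries). Spire1, an actin nucleator with a mitochondrial form, was the gene of the list that fell, with 22.7 ± 2.27 CPM with HMGB2 and 44.0 ± 2.07 CPM with the vector (log2 fold change -0.96; edgeR adjusted p = 0.000112). Genes known to promote fission and genes known to restrain it were both among those that rose.

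In the PINK1 pathway list, 1 of 15 tested genes rose, 4 fell and 10 did not pass (median log2 fold change 0.06). The gene that rose was Rhot2, an outer membrane GTPase of mitochondrial transport, which was named after its values were seen and averaged 34.7 ± 1.38 CPM with HMGB2 and 26.1 ± 1.39 CPM with the vector (edgeR adjusted p = 0.00689); the rises numbered 2 without vector 1.

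The 4 genes of that list that fell were the autophagy adaptor Sqstm1 and 3 subunits of the outer membrane import complex on which Pink1 is stabilised. Sqstm1 had 412, 424 and 437 CPM with HMGB2, against 772, 707 and 693 CPM with the vector, and every HMGB2 library lay well below the vector libraries (log2 fold change -0.77; edgeR adjusted p = 7.39e-05). Tomm70a averaged 161 ± 5.07 CPM with HMGB2 and 229.6 ± 8.11 CPM with the vector (edgeR adjusted p = 0.000585). Tomm40, the import pore, averaged 69.7 ± 2.40 CPM with HMGB2 and 98.3 ± 11 CPM with the vector (edgeR adjusted p = 0.00351). Tomm20, an import receptor, averaged 77.8 ± 6.02 CPM with HMGB2 and 107 ± 7.54 CPM with the vector (edgeR adjusted p = 0.00375). Not every subunit on the list fell. Tomm22 averaged 45.0 ± 5.49 CPM with HMGB2 and 46.5 ± 5.57 CPM with the vector (edgeR adjusted p = 0.822), and Tomm7 did not pass either. The count of 4 falls held when any 1 library was left out.

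The list of mitophagy receptors outside PINK1 also holds genes that are not receptors, such as Pptc7. Of its 10 genes, 4 rose and 0 fell (median log2 fold change 0.19), with 1 lower at an unadjusted edgeR p under 0.05 and 0 lower with DESeq2. Nipsnap2, a mitochondrial protein that marks damaged mitochondria for autophagy, had 165, 169.9 and 169 CPM with HMGB2, against 97.6, 97.1 and 97.2 CPM with the vector. The libraries of each group were nearly equal and the groups far apart (1.73-fold; edgeR adjusted p = 2.98e-05). Bnip3, a receptor induced by hypoxia, averaged 195 ± 23.2 CPM with HMGB2 and 123 ± 15.9 CPM with the vector (1.58-fold; edgeR adjusted p = 0.00297), and that call was lost without HMGB2 3 and vector 1 (adjusted p = 0.163), with a log2 fold change of 0.67 there and 0.66 with all libraries. Its relative Bnip3l averaged 131 ± 6.52 CPM with HMGB2 and 109 ± 6.35 CPM with the vector (edgeR adjusted p = 0.0294). Pptc7, a phosphatase that holds both receptors in check, averaged 37.5 ± 1.51 CPM with HMGB2 and 31.3 ± 1.61 CPM with the vector (edgeR adjusted p = 0.0439). Without HMGB2 1, HMGB2 2, vector 2 or vector 3, the list had 2 rises, since neither Bnip3l (adjusted p of 0.0642 to 0.128, log2 fold changes of 0.22 to 0.30) nor Pptc7 (adjusted p of 0.0623 to 0.148, log2 fold changes of 0.24 to 0.30) then passed. With all libraries these log2 fold changes were 0.27 for Bnip3l and 0.26 for Pptc7, and Pptc7 passed in 8 of 18 alternatives.

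Of the 7 genes whose products act on Fundc1, 1 rose (Marchf5) and 1 fell (median log2 fold change -0.07); 3 fell with length offsets, and 0 rose with limma. The gene that fell, Csnk2a2, a catalytic subunit of casein kinase 2, which phosphorylates Fundc1, averaged 53.4 ± 1.40 CPM with HMGB2 and 71.5 ± 3.64 CPM with the vector (log2 fold change -0.42; edgeR adjusted p = 0.00271). None of the 5 LC3 and GABARAP genes passed (0 rose, 0 fell, median log2 fold change 0.12), none had an unadjusted edgeR p under 0.05, and DESeq2 called 0. Of these, Gabarap averaged 286.5 CPM with HMGB2 and 264 CPM with the vector (edgeR adjusted p = 0.467).

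In the list of 10 genes that stand for mitochondrial mass, 1 rose and 1 fell (median log2 fold change -0.01). Citrate synthase, Cs, averaged 629 ± 3.73 CPM with HMGB2 and 460 ± 15.6 CPM with the vector (log2 fold change 0.45; edgeR adjusted p = 0.00102). Hspd1, the matrix chaperonin, averaged 296 ± 19.4 CPM with HMGB2 and 851 ± 71.0 CPM with the vector (log2 fold change -1.52; edgeR adjusted p = 3.6e-06). Mitochondrially encoded genes took 4.96% to 5.01% of counts with HMGB2 and 5.07% to 5.37% with the vector, so every HMGB2 library was lower. The 2 mass genes that passed moved in opposite directions, and without vector 1 the rises numbered 3.

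**Figure D4:**
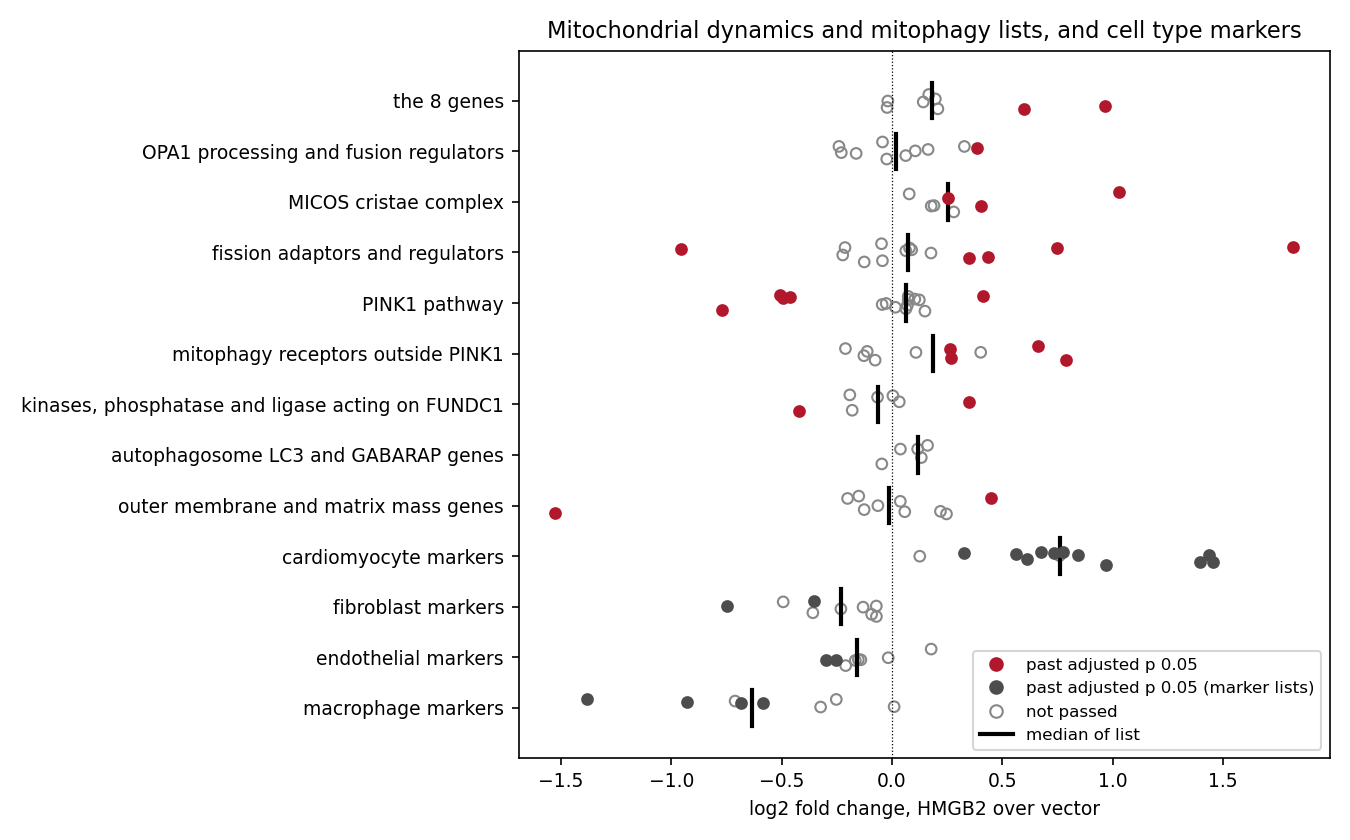
Log2 fold change, HMGB2 over vector, of each tested gene in the 8 genes, the 8 pathway lists and 4 of the cell type marker lists; filled points passed an adjusted p of 0.05 and black bars are medians. The medians of the pathway lists lie between -0.07 and 0.25, and that of the cardiomyocyte markers lies at 0.76.

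Cell type markers differed between the groups as well, most of all those of cardiomyocytes. Over all genes tested, 14.4% rose and 10.8% fell, and the marker counts here and in the next paragraph stand beside these shares. Of 13 cardiomyocyte markers, 11 rose and 0 fell (median log2 fold change 0.76), and their summed level was 30939 to 31333 CPM with HMGB2 and 18252 to 19641 CPM with the vector. Summed fibroblast markers were 6736 to 8132 CPM with HMGB2 and 7951 to 10283 CPM with the vector, and 2 of 9 fell. Summed endothelial markers were 2621 to 2682 CPM with HMGB2 and 3001 to 3046 CPM with the vector, and 2 of 8 fell. These falls depended on single libraries: fibroblast falls numbered 1 without HMGB2 1 or HMGB2 2 and 5 without vector 1, and endothelial falls numbered 0 without HMGB2 1, HMGB2 2, vector 2 or vector 3 and 1 without vector 1. Without HMGB2 3 and vector 1 together, 13 of 13 cardiomyocyte markers rose, and 7 fibroblast and 6 endothelial markers fell. Calls over all genes also grew there, to 3265 that rose and 2986 that fell.

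Macrophage markers were scarce, at 71.1 to 82.5 CPM with HMGB2 and 95.4 to 129.8 CPM with the vector, and 4 of 8 fell (1 of 8 without vector 2). Of 7 smooth muscle and pericyte markers 1 rose and 1 fell, with sums of 1387 to 1443 CPM with HMGB2 and 1400 to 1455 CPM with the vector. Of 6 epicardial markers 1 fell, with sums of 165 to 175 CPM with HMGB2 and 194 to 215 CPM with the vector. The 5 erythroid markers had too few counts to be tested, and Hba-a2 and Hbb-bt had 0 counts in every library. The cultures thus held cardiomyocyte transcripts, as labelled, along with those of other heart cells. In such bulk samples fewer cells of a type and less RNA per cell cannot be told apart.

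Set against the summed cardiomyocyte markers, Mfn2 had 9.59 to 10.7 CPM per 1000 marker CPM with HMGB2 and 8.01 to 9.46 with the vector. Its ranges did not overlap, but HMGB2 3 (9.59) and vector 3 (9.46) lay close together. Mfn1 had 3.55 to 3.81 with HMGB2 and 3.78 to 4.16 with the vector, and these ranges overlapped. The other 6 genes had lower ratios in every HMGB2 library than in any vector library. For Opa1, for example, they were 4.53 to 5.07 with HMGB2 and 6.29 to 7.69 with the vector. The marker sum was itself higher with HMGB2 (30939 to 31333 CPM, against 18252 to 19641 CPM with the vector). A gene that changed little must therefore have a lower ratio, and the share of all genes with such ratios is not given here. These ratios are descriptions, and the part of the marker difference in the rises of Mfn1 and Mfn2 was not tested further.

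Among all 77 tested genes of the pathway lists, profiles over the 6 libraries were compared by the root mean square distance between log2 CPM values centred on each gene's mean. Nearest to Mfn1 were Cs (0.0893) and Akap1 (0.0980), and nearest to Mfn2 were Nipsnap2 (0.110) and Mtfr1l (0.214). Opa1 lay nearest to Usp8 (0.0474) and Nbr1 (0.0528), and Dnm1l to the same pair, Nbr1 (0.0607) and Usp8 (0.0634). Fis1 lay nearest to Vdac3 (0.0379) and Micos10 (0.0443), and Mff to Rhot1 (0.0340) and Mief2 (0.0472). Pink1 lay nearest to Map1lc3b (0.0395) and Stoml2 (0.0433), and Fundc1 to Tomm22 (0.0790) and Micos13 (0.0849). These distances include the difference between the groups, so likeness in that difference is part of how the neighbours were chosen.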

How the data were processed

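Expression was measured by RNA sequencing in 3 HMGB2 and 3 vector libraries (TRIzol RNA; library kit VAHTS Universal V5 according to the protocol text). Without roles, the submitters' processing notes list StringTie 1.3.3b, HTSeq 0.6.1, HISAT2 2.2.1, FastQC 0.10.1 and the build mm10; no strand setting is stated. The authors deposited raw counts per Ensembl gene and FPKM values, which the deposited counts, rescaled by library total and exon length, give again for the 8 genes. Tests on counts used edgeR 4.0.16 (R 4.3.3; filterByExpr with minimum count 10 and total 15, TMM, robust quasi-likelihood, group as the only term), adjusted by Benjamini-Hochberg over 15429 genes with a threshold of 0.05. Deposited FPKM served for levels between genes and for an alternative test. Gene positions are from GENCODE M21 on GRCm38, found by Ensembl identifier, because the positions in the tables differ from it.

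The 8 genes and the gene lists were chosen with earlier results of these data known, and 1 gene of the PINK1 pathway is not reported here. Named genes were the 8, Hmgb2, for each pathway list up to 4 called genes of smallest p (or the 2 of highest mean if fewer than 2 passed), and the 2 nearest profiles of each of the 8. Alternatives were other scalings and filters, DESeq2 1.42.0, limma 3.58.1 on log2(FPKM + 1 or 0.1) with and without a mean FPKM filter of 0.5, each library left out, a replicate block, leaving out HMGB2 3 and vector 1 together (chosen with earlier results known) and, chosen after seeing the data, offsets that remove each library's trend with exon length. The edgeR script was tested on simulated data. Motifs and sequence matches used biopython 1.88 and blastn 2.17.0.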

Additional observations from a re-analysis of the deposited data

How the results depend on the processing

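Mfn1 (log2 fold change 0.55 to 0.62) and Mfn2 (0.94 to 1.01) passed the threshold in all 18 alternatives. The count of the 8 genes that rose was 6 without HMGB2 3 and vector 1 together, 4 with length offsets and 3 without vector 1 alone. It was 2 in each other alternative, and 0 fell in all of them. Calls over all genes grew there too, from 2224 rises and 1662 falls in the main fit. They were 2618 rises and 2442 falls with length offsets, and 2526 rises and 1960 falls without vector 1. Leaving out 1 library at a time gave 2 to 3 of the 8 genes. Over all genes, 1387 rose and 671 fell with limma without a filter. With the replicate block, 1459 rose and 754 fell, and 2 of the 8 genes rose under it. The deviations of same-numbered libraries had correlations of -0.32, 0.23 and -0.37. HMGB2 3 and vector 1 deviated together (0.52), so these correlations cannot decide whether the numbers pair the libraries. Without HMGB2 3 and vector 1, 2986 genes fell. Leaving out 1 library at a time gave 1567 to 2526 rises and 866 to 1960 falls. Higher genes were 57.2% of the genes that passed, 67.4% with limma without a filter, 65.9% with the replicate block, 52.2% without HMGB2 3 and vector 1 and 51.7% with length offsets.

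Pink1 and Fundc1, which never passed, were negative with all libraries and positive in 8 (Pink1) and 7 (Fundc1) of 18 alternatives. Pink1 was 0.0015 with library totals, 0.0054 with limma with and without the filter, 0.0061 with a pseudocount of 0.1, 0.047 without HMGB2 3 and vector 1, and -0.080 to 0.092 with 1 library left out. Fundc1 was 0.0063 with limma with and without the filter, 0.0080 with a pseudocount of 0.1, 0.049 without both libraries, and -0.15 to 0.16 with 1 left out. Stoml2 was 0.045 without both and -0.10 to 0.050 with 1 left out, where Tomm22 (-0.15 to 0.052), Yme1l1 (-0.051 to 0.0037), Map1lc3b (-0.0043 to 0.12) and Micos13 (-0.036 to 0.21) also crossed 0. The cause of these shifts was not tested.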
